A study of Homo sapiens with 24 samples.

Results

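The regions described here are the clusters of zinc finger genes on human chromosome 19, as seen by FAIRE-seq, an assay that recovers and sequences DNA not tightly held by nucleosomes. Members were chosen by position. Any peak of any of the 24 deposited lists counted if it overlapped 1 of 4 windows of chromosome 19 (hg19), which run from 19.5 to 24.5 Mb (window 1), from 36.5 to 38.5 Mb (window 2), from 52.0 to 54.0 Mb (window 3) and from 56.3 to 59.118 Mb (window 4). That gave 12415 peaks of 4683186 over the 24 lists, with 72643 on the rest of chromosome 19. A library held between 291 and 676 of them. The windows were proposed with the difference between the sublines in view, and 2 promoters within them, those of ZNF506 and ZNF132, were picked for that difference. Values between the sublines are therefore given as a description, and calls from the genome-wide test of regions only beside the share of all regions that passed it.

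The study set 2 prostate cancer lines side by side. LNCaP, the parental line, responds to androgen through the androgen receptor, and RES-A was derived from it by selection for growth under enzalutamide (ENZ), an androgen receptor antagonist. All cells spent 3 days in medium with 5% charcoal-stripped serum, to which 10 µM ENZ was added for RES-A only. DMSO (vehicle), 10 nM dihydrotestosterone (DHT), 10 µM ENZ or DHT+ENZ then followed for 18 h, with 3 libraries in each of the 8 groups, described as biological replicates. RES-A is 1 derived line, so that resistance, prior ENZ and any other difference between the lines cannot be told apart.

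Most genes in these windows encode KRAB zinc finger proteins. Such a protein binds DNA through an array of C2H2 zinc fingers and recruits the corepressor TRIM28 (KAP1) through its KRAB domain, which leads to histone H3 lysine 9 methylation and silencing, often over transposable elements. The clusters arose by repeated tandem duplication, and the gene bodies carry much H3 lysine 9 trimethylation while many of the promoters, often rich in CpG, stay open.

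The ZNF132 promoter is shown because the region over it had one of the clearest differences between the sublines. ZNF132 encodes a KRAB zinc finger protein. The 250 bases before its start (RefSeq, GRCh38.p14, chr19:58440154-58440403, minus strand, read along the gene; this build is not the hg19 of the peak lists) read as follows, with CCAAT boxes and an ETS site in capitals.
ZNF132: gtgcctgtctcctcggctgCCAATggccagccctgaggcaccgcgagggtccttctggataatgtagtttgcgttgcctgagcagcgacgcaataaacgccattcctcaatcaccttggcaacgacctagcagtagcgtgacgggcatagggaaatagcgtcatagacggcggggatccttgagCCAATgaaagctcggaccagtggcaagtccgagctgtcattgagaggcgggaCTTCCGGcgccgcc
The stretch has a GC content of 59.2% and 19 CpG dinucleotides. The letters CCAAT lie at −231 to −227 and at −66 to −62 from the start, and CCGGAAG, the core of sites for ETS factors, lies on the opposite strand at −14 to −8. The first CCAAT, the second and the ETS site do not overlap. The GC box, TATA box, E-box, forkhead letters and androgen response element arm spelled out in the next paragraph, searched on both strands, were not in this window.

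A list of 163 zinc finger genes of the windows, written from general knowledge, was matched to RefSeq promoters of the same length, and 136 were found. CCGGAAG was in 36.8% of the 136 and in 8.82% of all 27305 promoters. The GC box GGGCGG was in 58.8% against 42.3%, and CCAAT in 49.3% against 33.0%. TATAAA was in 3.68% against 11.1%, the E-box CACGTG in 5.15% against 6.49%, the forkhead letters TGTTTAC in 0.735% against 2.98%, and the letters AGAACA, one arm of the androgen response element, in 5.15% against 12.4%. Listed promoters held a median of 17 CpG against 11 over all. The listed genes are close duplicates of one another in many cases, so these shares are not over independent sequences, and a match of letters is not a bound site.

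Libraries differed in depth. Lists held 73254 to 275774 peaks, and the genome-wide background that the peak caller had used, a pileup of fragments that serves as a measure of relative depth, ran from 0.41 to 5.99. The lowest were LNCaP ENZ replicate 1 (0.41) and LNCaP DHT replicate 1 (0.74), and results are given without these libraries where that changed them. To hold the list length constant, the 50000 peaks of each library with the highest −log10 p (the authors' peak caller scores each peak by a p-value) were used and are called top-ranked. Top-ranked peaks of the 24 libraries that overlapped by at least 1 bp were merged into regions. The windows held 364 of 119361 regions, with 100, 67, 71 and 126 in windows 1 to 4. Their density rose from 20.0 regions per Mb in window 1 through 33.5 and 35.5 to 44.7 in window 4, and was 30.8 over all windows against 46.2 on the rest of the chromosome.

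The first question was what share of the open chromatin of chromosome 19 lay in the windows. In LNCaP, between 16.0% and 17.9% of the top-ranked peaks of the chromosome were there (median 17.4%), with a mean of 17.2% ± 0.642 (SD, n = 12). In RES-A the share was between 14.7% and 15.3% (median 15.0%), with a mean of 15.0% ± 0.238 (SD, n = 12). Every RES-A library was below every LNCaP library, so RES-A was necessarily lower in 12 of 12 pairs of the same treatment and replicate number. The difference was −2.24 percentage points over all treatments. By treatment it was −1.88 (DMSO), −2.18 (DHT), −2.33 (ENZ) and −2.57 (DHT+ENZ).

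**Figure D1:**
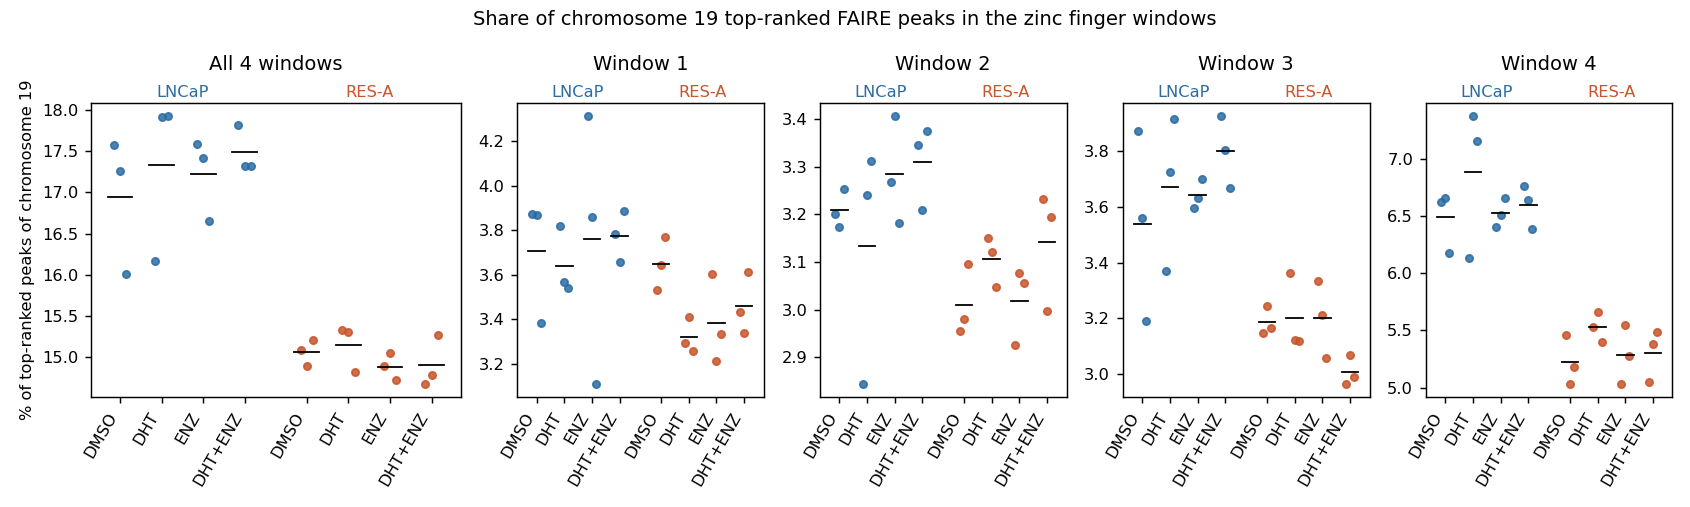
Share of the top-ranked peaks of chromosome 19 that overlap the zinc finger windows (% on each vertical axis, which does not start at 0 and differs between panels), for all 4 windows and for each. Points are libraries, bars are means of 3 libraries, and colours are the sublines; the 12 RES-A libraries lie between 14.7% and 15.3% in the first panel, all below the LNCaP libraries.

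Among top-ranked peaks, the share fell through its numerator and its denominator. Top-ranked peaks in the windows numbered 235 ± 14.2 (SD) per LNCaP library and 220.1 ± 6.79 per RES-A library, while those on the rest of chromosome 19 numbered 1128 ± 76.7 and 1247 ± 39.8. With peaks of any rank, whose number varies with depth, the windows held about as many in either line, 519 ± 125 and 515 ± 32.6. The rest of the chromosome then held 2696 ± 626 in LNCaP and 3358 ± 232 in RES-A.

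The windows did not contribute alike. Window 4, which holds the ZNF132 promoter, went from 90.1 ± 4.58 peaks in LNCaP to 78.25 ± 3.17 in RES-A. Its share went from 6.62% ± 0.359 to 5.34% ± 0.219, and the sublines did not overlap. Window 3 went from 49.8 ± 3.19 to 46.2 ± 2.41 peaks, and its share from 3.66% ± 0.220 to 3.15% ± 0.125. Windows 1 and 2 held about as many peaks in either line, with 50.75 ± 5.89 and 50.7 ± 3.45 in window 1 and 44.1 ± 3.63 and 45.0 ± 1.48 in window 2. Their shares differed by −0.269 and −0.165 percentage points. The sign for window 2 turned, to 0.0565 points, when only the 25000 top-ranked peaks were used. Without the 2 promoter regions the difference in window 1 was −0.200, and without the 2 shallowest libraries −0.178.

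Within the windows, gains and losses lay in different places. Bins were 250 kb long but for the last of window 4, of 68 kb. The mean was lower in RES-A in 12 of 20 bins of window 1 and 6 of 8 of window 2. It was also lower in 6 of 8 bins of window 3 and 9 of 12 of window 4. In window 4 these were led by the bin 2.0 Mb from its start, with 11.3 peaks in LNCaP and 8.25 in RES-A. The 250 kb at the start of window 1 went the other way, from 5.75 peaks to 11.8, as did the last 250 kb of window 2, from 5.42 to 8.58. Window 1 also contains a stretch from 2.75 to 3.5 Mb from its start with a mean of 0 to 0.0833 peaks per bin in LNCaP and 0 in RES-A.

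**Figure D2:**
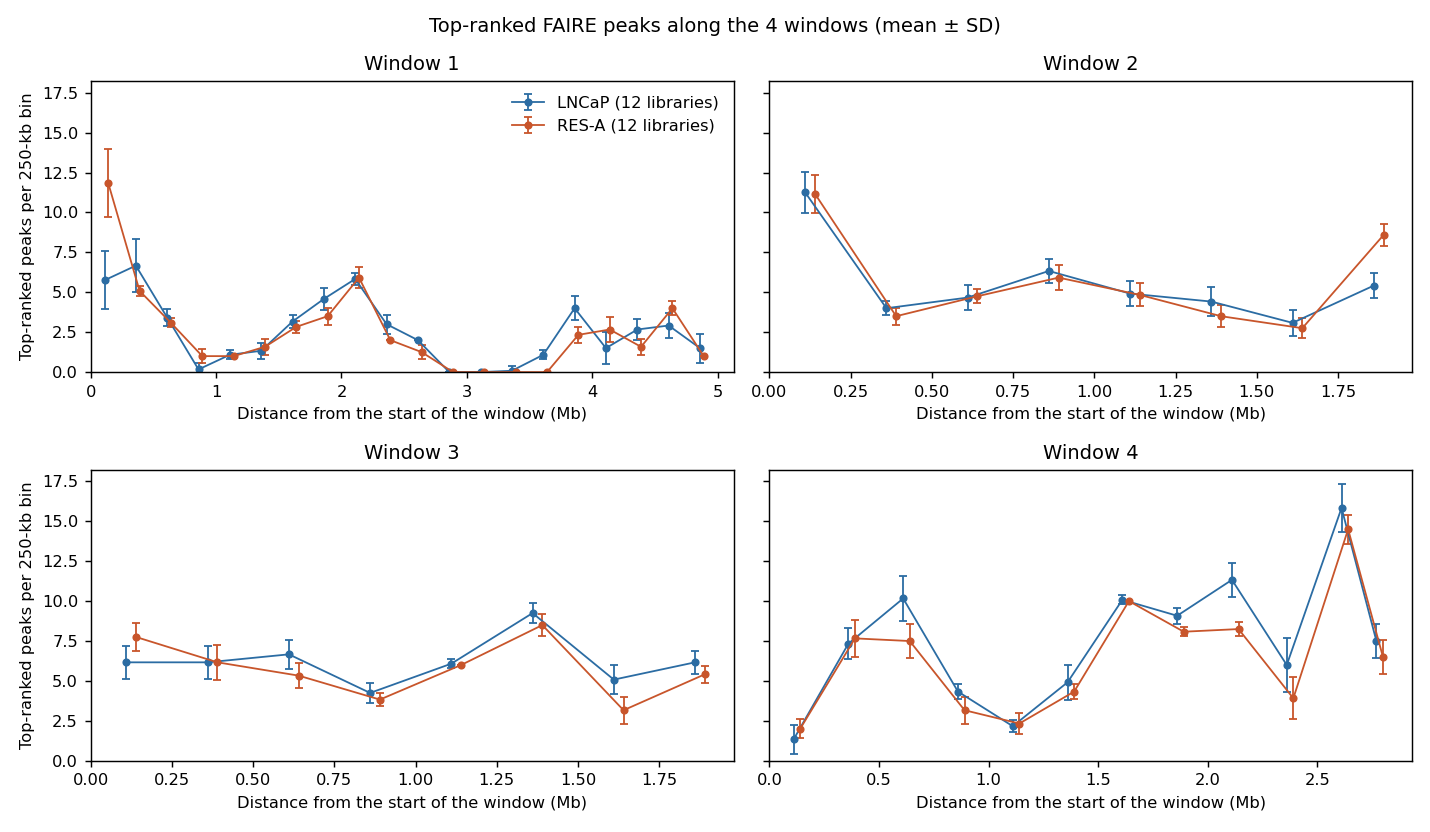
Top-ranked peaks per 250-kb bin (vertical axis, mean ± SD over 12 libraries a subline) against distance from the start of each window (horizontal axis, Mb; the last bin of window 4 spans 68 kb). RES-A lies above LNCaP at the start of window 1 and at the end of window 2, and below it in most bins of each window.

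Regions were then sorted by the libraries that called them. A region was called in a library if a top-ranked peak of that library lay in it. Of the 364 regions, 127 (34.9%) were called in all 24 libraries and are referred to as kept, against 25.4% on the rest of chromosome 19 and 10.6% of all regions. A further 48 were called in 19 to 23 libraries and 109 in 1 to 5, of which 57 were called in 1. The remaining 80 were called in 6 to 18 libraries and entered Fisher's exact test of 12 RES-A against 12 LNCaP libraries, adjusted by the Benjamini-Hochberg method over all 38599 such regions of the genome.

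Of these 80 regions, 47 had an adjusted p under 0.05, against 57.8% of all regions tested and 49.7% of those on the rest of chromosome 19. The 21 called more often in RES-A (gained) compare with 31.7% of all tested regions and 38.9% of the 547 on the rest of the chromosome. The 26 called more often in LNCaP (lost) compare with 26.1% and 10.8%. As shares of the 80 regions these are 26.25% gained and 32.5% lost. The balance depended on the peaks used, with 47 gained and 37 lost when all deposited peaks entered and 46 and 36 at a q of at most 0.01. Since the contrast was used to propose the windows, nothing is read from these shares.

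Losses outnumbered gains in windows 3 and 4 and not in the others. Window 1 had 13 gained and 8 lost of 29 tested (44.8% and 27.6%), and window 2 had 4 and 2 of 12 (33.3% and 16.7%). Window 3 had 1 and 4 of 13 (7.69% and 30.8%), and window 4 had 3 and 12 of 26 (11.5% and 46.2%). Over all regions tested these shares were 31.7% and 26.1%, and on the rest of chromosome 19 they were 38.9% and 10.8%. As above, they are given as a description. Of the 21 gained regions, 8 lay in the first 250 kb of window 1 and 4 in the last 250 kb of window 2, at the outer edges of these windows. The genes there were not analysed, so whether these gains lie among zinc finger genes was not established. With each window shortened by 250 kb at both ends, an alternative chosen after these positions were seen, 7 gained and 22 lost regions remained of 51 tested. This cut took out places where gains had been seen, so nothing is read from these counts.

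**Figure D3:**
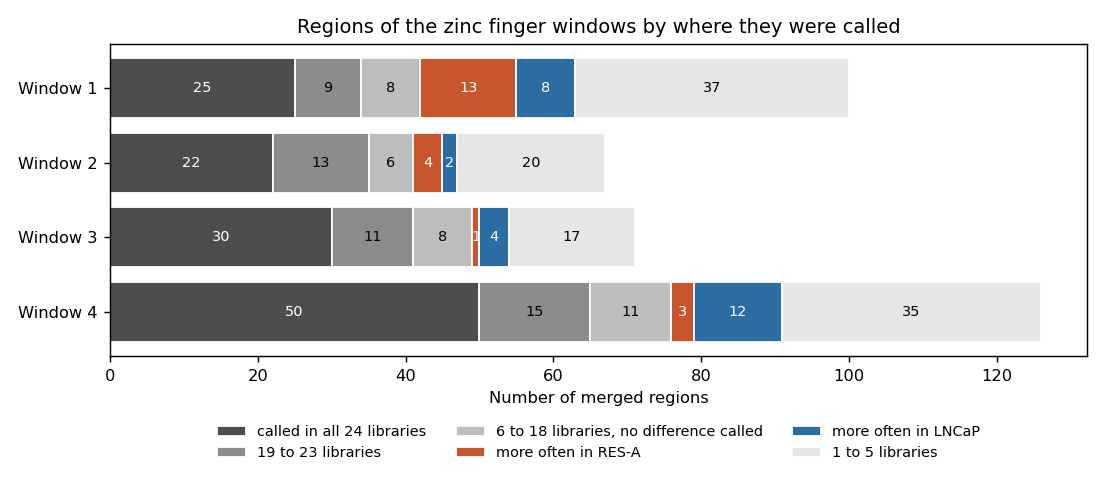
Number of merged regions of each window (horizontal axis) by the libraries in which they were called, in 6 classes. Window 1 has 13 regions called more often in RES-A and 8 called more often in LNCaP, and window 4 has 3 and 12.

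Most lost regions still had a peak of lower rank in RES-A, in the windows and on the rest of chromosome 19. When peaks of any rank were counted, 1 of the 26 lost regions had no peak in any RES-A library, at chr19:23185898-23186265, while 23 (88.5%) had a peak in at least 6 and 15 in all 12. On the rest of the chromosome, 84.7% of the 59 lost regions had one in at least 6. The fold enrichment of the peak over the expected pileup, as the authors' peak caller gave it, had a median over lost regions of 7.32 in LNCaP and 4.75 in RES-A. Of the 21 gained regions, 4 had no LNCaP peak of any rank, 15 (71.4%) had one in at least 6 LNCaP libraries and none had one in all 12. On the rest of the chromosome, 72.3% of the 213 gained regions had one in at least 6. Over the 21 gained regions of the windows the median fold was 4.75 in LNCaP and 9.97 in RES-A. These medians leave out libraries with no peak at the region, and shallow libraries list fewer weak peaks. Lost and gained regions were sorted by rank in the sublines, so a difference in fold in that direction is largely built in. Folds were also higher in RES-A in general, with medians of 10.6 in LNCaP and 14.1 in RES-A at the kept regions.

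The region at the ZNF506 position, chr19:19932226-19932889, was called in 12 of 12 LNCaP and in 0 of 12 RES-A libraries. ZNF506 encodes a KRAB zinc finger protein. In LNCaP the fold enrichment was 14.5, 14.0 and 10.3 in the DMSO libraries, 9.09, 11.4 and 8.82 after DHT, 10.5, 13.1 and 10.3 after ENZ, and 15.5, 11.1 and 9.09 after DHT+ENZ. In RES-A, 6 libraries had no peak at all, and the other 6 had peaks of lower rank with folds of 2.92 to 4.09 (median 3.24). No RES-A value reached the lowest LNCaP value, and the 6 RES-A libraries with a peak came from all 4 treatments.

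The region at the ZNF132 position, chr19:58951405-58951911, was again called in 12 LNCaP and 0 RES-A libraries. In LNCaP the fold enrichment was 16.9, 20.1 and 16.5 in the DMSO libraries, 10.7, 17.3 and 13.3 after DHT, 9.998, 16.4 and 14.2 after ENZ, and 17.6, 15.1 and 14.1 after DHT+ENZ. In RES-A it was 6.71, 5.999 and 4.90 in the DMSO libraries, 6.69, 4.62 and 6.74 after DHT, 4.58, 5.48 and 5.88 after ENZ, and 5.66, 4.74 and 3.36 after DHT+ENZ. The sublines did not overlap. Unlike at ZNF506, a peak of lower rank persisted in all 12 RES-A libraries at this promoter, whose sequence is printed above. The lowest LNCaP values at ZNF132 were those of the 2 shallowest libraries.

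**Figure D4:**
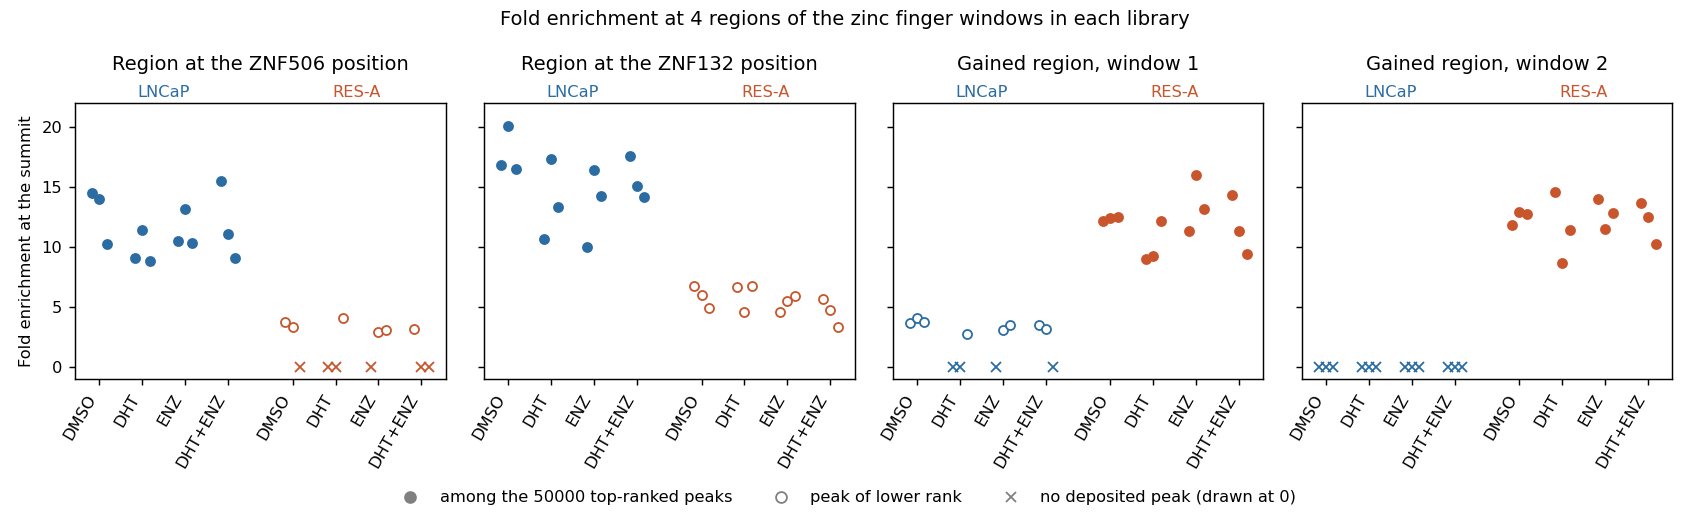
Fold enrichment at the summit (vertical axis) in each library at the regions of the ZNF506 and ZNF132 positions and at the gained regions with the smallest p of windows 1 and 2. Filled points are top-ranked peaks, open points are peaks of lower rank, and crosses at 0 mark libraries without a deposited peak; LNCaP is above RES-A in the first 2 panels and below it in the other 2.

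Other lost regions differed in how much signal remained in RES-A. In window 4, chr19:58400208-58400659 was called in 12 LNCaP libraries, with folds of 5.78 to 12.9 (median 9.63), and in 0 RES-A libraries, of which 9 had a peak of lower rank at 2.89 to 5.55. In window 1, chr19:23257752-23258464 was called in 11 LNCaP and 0 RES-A libraries, yet all 12 RES-A libraries had a peak there (median fold 4.67 against 8.08 in LNCaP). The highest RES-A peak at this region, at 6.17, was above the lowest LNCaP peak, at 5.44.

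In window 3, chr19:53757995-53758369 and chr19:53700079-53700433 were each called in 11 LNCaP and 0 RES-A libraries. Their median folds were 7.68 against 4.01 and 7.07 against 4.78. In window 2, chr19:37463980-37464536 was called in 7 LNCaP and 0 RES-A libraries, and chr19:37825379-37825699 in 10 and 2. At the last of these the median folds were 7.27 and 6.82 and the ranges overlapped almost wholly. Folds were higher in RES-A in general, with medians of 10.6 in LNCaP and 14.1 in RES-A at the kept regions of the windows. Similar folds in the 2 sublines therefore do not mean a similar rank.

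Some gained regions appeared where LNCaP had no peak of any rank. In window 2, chr19:38495131-38495531 was called in 12 RES-A libraries, with folds of 8.67 to 14.6 (median 12.6), and had no peak in any LNCaP library. Across a gap of 604 bp, chr19:38494031-38494526 was called in 11 RES-A libraries (median fold 7.32) and likewise had no LNCaP peak. The first of them ends 4.47 kb before the end of the window and is the last region inside it. The others of this kind are in window 1, at chr19:19545312-19545680 and chr19:19691228-19691567, called in 9 and 8 RES-A libraries with median folds of 11.2 and 9.12.

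At most other gained regions LNCaP had a weak peak. In window 1, chr19:19738379-19738773 was called in 12 RES-A libraries with folds of 9.03 to 16.0 (median 12.2) and in 0 LNCaP libraries, of which 8 had peaks of lower rank at 2.72 to 4.11. The sublines did not overlap at this region. At chr19:19575200-19575556, called in 11 RES-A libraries and 0 LNCaP libraries, the median folds were 9.75 and 4.19. In window 3 the single gained region, chr19:52119260-52119692, was called in 12 and 1 libraries with median folds of 12.5 and 3.58. In window 4, chr19:56469727-56470095 and chr19:56631671-56631967 were each called in 11 RES-A and 2 LNCaP libraries, with median folds of 10.2 against 5.90 and 7.10 against 4.75.

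Kept regions were the strongest of the windows, which follows largely from their being top-ranked in all 24 libraries. Their median fold was 10.6 in LNCaP and 14.1 in RES-A. The number of kept regions was 25, 22, 30 and 50 in windows 1 to 4. The kept regions ranked highest in each window were chr19:20150007-20150754 and chr19:19887078-19887694 in window 1, chr19:36605658-36606710 and chr19:37701276-37701814 in window 2, chr19:52692589-52693401 and chr19:52074149-52074643 in window 3, and chr19:59010468-59011030 and chr19:58892059-58892863 in window 4. The strongest in RES-A, chr19:59010468-59011030, had folds of 18.5 to 21.6 (median 19.6) there and of 10.5 to 21.0 (median 15.9) in LNCaP. That kept region lies 58.6 kb from the lost ZNF132 region.

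Fold enrichment as such was higher in RES-A lists in general, so the height of the 127 kept regions was set against the median of all 12669 kept regions of the genome in the same library and then against the 554 kept regions on the rest of chromosome 19. On the log2 scale of fold enrichment the windows exceeded the rest by 0.03 ± 0.03 (SD, n = 12) in LNCaP and by 0.08 ± 0.03 in RES-A, with overlapping libraries. On the log2 scale of the summit pileup the order turned, with −0.04 ± 0.03 in LNCaP and −0.20 ± 0.02 in RES-A. The 12 RES-A libraries, at −0.24 to −0.16, all lay below the LNCaP libraries, at −0.07 to 0.02.

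The 2 scales differ by the local background by which the peak caller divides. At the kept regions this background, on the log2 scale and taken relative to the genome and to the rest of the chromosome in the same way, was −0.08 ± 0.04 in LNCaP and −0.33 ± 0.03 in RES-A, again without overlap. Its part in the calls of lost and gained regions was not tested. By window, the pileup of kept regions relative to the genome differed between RES-A and LNCaP by −0.20 in window 1, −0.03 in window 2, −0.09 in window 3 and −0.19 in window 4, while it differed by 0.03 on the rest of chromosome 19.

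**Figure D5:**
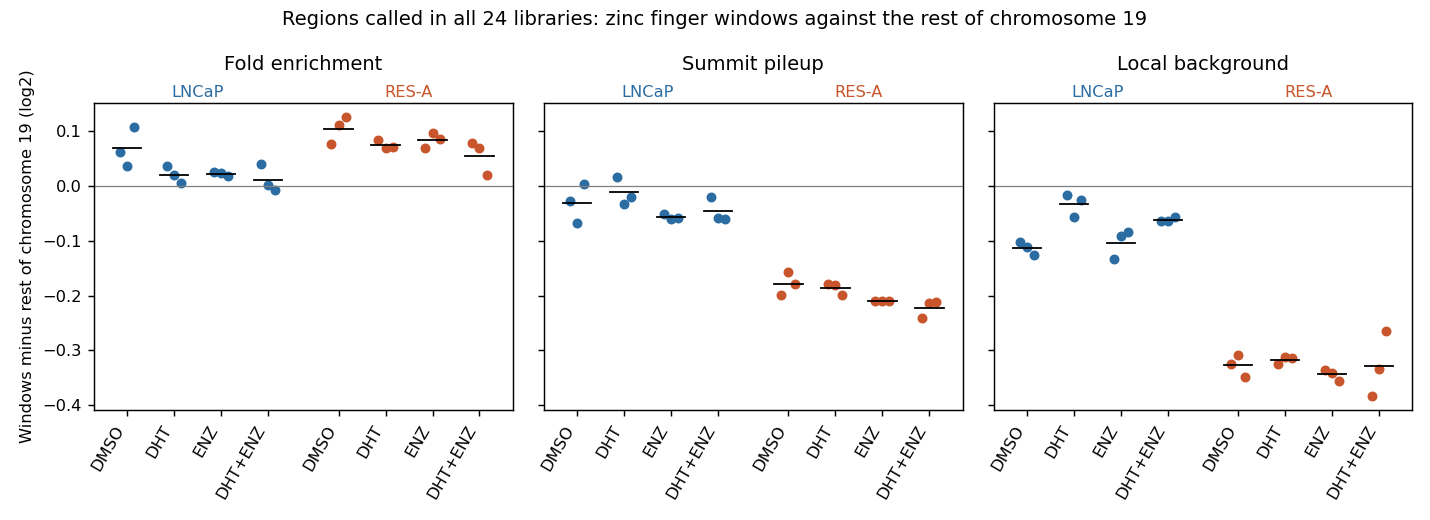
Kept regions of the windows minus kept regions of the rest of chromosome 19 (vertical axis, log2, after setting each library's genome-wide median of kept regions to 0) for fold enrichment, summit pileup and local background. Points are libraries and bars are means of 3; RES-A is below LNCaP for pileup and background without overlap, and overlaps it for fold enrichment.

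Treatments, which played no role in choosing the windows, were compared within each subline by exact two-sided permutation tests over libraries, in which 3 against 3 cannot go below a p of 0.1. In LNCaP the share of chromosome 19 peaks in the windows was 17.6%, 17.3% and 16.0% in the DMSO libraries, 16.2%, 17.9% and 17.9% after DHT, 17.6%, 17.4% and 16.7% after ENZ, and 17.8%, 17.3% and 17.3% after DHT+ENZ. In RES-A it was 15.1%, 14.9% and 15.2% in the DMSO libraries, 15.3%, 15.3% and 14.8% after DHT, 14.9%, 15.1% and 14.7% after ENZ, and 14.7%, 14.8% and 15.3% after DHT+ENZ. Within a subline, the groups overlapped in each of the 6 contrasts.

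The difference of DHT from DMSO was 0.387 percentage points in LNCaP (exact p = 0.5) and 0.0886 in RES-A (exact p = 0.6). That of ENZ from DMSO was 0.270 (exact p = 0.6) and −0.177 (exact p = 0.2), and that of DHT+ENZ from DHT was 0.149 (exact p = 1) and −0.243 (exact p = 0.2). Without LNCaP DHT replicate 1, one of the 2 shallowest libraries, DHT+ENZ minus DHT in LNCaP turned to −0.433, and it ran from −0.433 to 0.444 when 1 library was left out. Adjusted over the 6 contrasts, p was between 0.6 and 1. None of these passed the threshold, which 3 libraries a group cannot reach.

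Over both sublines, with treatments permuted within each, DHT differed from DMSO by 0.238 points (exact permutation p = 0.455, 6 against 6 libraries). This value depended on the peaks used. It was 0.532 (exact p = 0.02) with the 25000 top-ranked peaks, 0.974 (exact p = 0.025) with all deposited peaks and −0.186 (exact p = 0.46) as a share of base pairs. The DHT effect on the share over all windows differed between the sublines by −0.298 points. An exact permutation test of this interaction gave an adjusted p of 0.985 in each window and over all. That test permuted subline labels within treatments, so its spread includes the whole difference between the sublines. It therefore cannot decide whether the DHT effect differs between them.

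Region by region, 86 regions of the windows were called in 3 to 9 of the 12 DHT and DMSO libraries and were tested, 6 against 6. By Fisher's exact test, 0 had an adjusted p under 0.05, as for all 43696 regions of the genome tested, of which 0% passed. The smallest Fisher's exact p over all of them was 0.00216, the lowest that 6 against 6 can give. Its adjusted value was 0.183, so no region could pass. The test also pooled the sublines. A region called in 3 DHT and 0 DMSO libraries, all of 1 subline, had a Fisher's exact p of 0.182. These counts therefore cannot show that DHT left the regions unchanged. At an unadjusted p under 0.05 the count was also 0 in the windows, against 4.15% of all regions tested and 1.84% of the 599 on the rest of chromosome 19. A paired exact McNemar test gave 0 at either threshold in the windows. The smallest p in the windows was 0.0606 (exact, 6 against 6 libraries), at chr19:37063645-37064350 and chr19:58514049-58514399, both called in 2 DHT and 6 DMSO libraries. Most often with DHT were chr19:19702009-19702410 and chr19:52511252-52511850, each called in 5 DHT and 1 DMSO libraries (exact p = 0.0801). The next in each direction were chr19:57639982-57640518, called in 3 DHT and 0 DMSO libraries, and chr19:36627849-36628371, called in 3 and 6 (exact p = 0.182 for both). At both, the whole difference lay in LNCaP, with 3 DHT and 0 DMSO libraries at the first and 0 and 3 at the second. RES-A had 0 and 0 at the first and 3 and 3 at the second. At chr19:37063645-37064350 the calls were 0 and 3 in LNCaP and 2 and 3 in RES-A. At the other regions named here, both sublines differed in the same direction. Differences within 1 subline were not tested region by region.

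Kept regions of the windows had lower fold enrichment with DHT than with DMSO, relative to the kept regions of the genome. On the log2 scale the mean over the 127 regions was 0.30 ± 0.02 (SD, n = 6) with DMSO and 0.24 ± 0.04 with DHT. That difference of −0.06 had an exact permutation p of 0.01, adjusted to 0.028 over 14 such tests (7 sets of regions on 2 scales). By window it was −0.02 (exact p = 0.435), −0.07 (exact p = 0.01), −0.09 (exact p = 0.01) and −0.05 (exact p = 0.03) in windows 1 to 4, of which windows 2 and 3 passed after adjustment, and it was −0.02 (exact p = 0.475) on the rest of chromosome 19. Windows minus rest went from 0.09 ± 0.03 to 0.05 ± 0.03, a difference of −0.04 (exact p = 0.02, adjusted 0.0467).

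On the pileup scale the windows did not stand apart from the rest. The windows differed by −0.07 (exact p = 0.055) and the rest of the chromosome by −0.07 (exact p = 0.005), so that windows minus rest was 0.01 (exact p = 0.735). Of the 4 windows, only window 2 passed after adjustment on this scale, at −0.12 (exact p = 0.01), and the rest of the chromosome passed too. For windows minus rest on the fold scale, the exact p was 0.06 without LNCaP DHT replicate 1, one of the 2 shallowest libraries, and 0.0625 with the replicate number as a block.

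Libraries resembled each other by subline before treatment, in the windows as on the rest of the chromosome. The mean Jaccard index of region calls (shared calls over all calls of a pair) in the windows was 0.825 ± 0.0710 (SD over 24 pairs) within a group, 0.814 ± 0.0696 between treatments of a subline and 0.705 ± 0.0599 between sublines at the same treatment. The same values for the rest of the chromosome were 0.762, 0.745 and 0.647. Pairs share libraries, so these are given without a test.

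At the edges of the windows, calls on both sides were alike in some places and not in others. The last region before window 1 and the first inside it were called in all 24 libraries. The last region inside window 2 was called in 12 RES-A and 0 LNCaP libraries, and the next one outside, at chr19:38548554-38549004, in 12 and 8. The first region inside window 3 was called in 8 RES-A and 3 LNCaP libraries, and the last before it in 6 and 6. The last region inside window 4 was called in 1 and 3, and the first after it, the outermost of the chromosome, in 12 and 9.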

How the data were processed

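FAIRE-seq peak lists of 24 libraries (8 groups of 3, from the sample labels) were used. Per the submitters' processing notes, the authors used BWA 0.7.8-r455, Picard 1.118 and MACS2 2.1.0 with hg19, and called peaks in each library separately. Options and a control library were not given in the sources used here. The deposited lists give each peak's position, length, summit pileup (a signal not scaled between libraries), −log10 p and q, and fold enrichment, a ratio over the expected pileup. The local background was recovered as (pileup + 1) / fold − 1.

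Members, gene list and tests were chosen with earlier results of these data known. Permutation tests over libraries (100000 draws, or exact) and Fisher's exact tests (Benjamini-Hochberg over all regions tested) were run in Python 3.11.15 and tested on simulated data. Permutation p-values between sublines are not given, since that contrast led to the windows. Named were the regions at the ZNF506 and ZNF132 positions and, per window, the 2 gained, 2 lost and 2 kept regions with the smallest p or highest rank, plus the 3 per direction with the smallest p for DHT. Regions without any peak in one subline were named after their values were seen. Alternatives were other rank limits, all peaks, a q of at most 0.01, midpoints, base pairs, overlap rules, pairing and leaving out libraries. Genes and sequences at other regions are not analysed here, since the genome used here was not hg19.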

Additional observations from a re-analysis of the deposited data

How the results depend on the processing

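The lower share in RES-A kept its sign in every alternative run (−2.86 to −2.12 points), and leaving out 1 library gave −2.38 to −2.16 points for all windows, −0.350 to −0.200, −0.201 to −0.143, −0.560 to −0.475 and −1.38 to −1.23 for windows 1 to 4. The difference in window 2 turned with 25000 peaks (0.0565) and was nearer 0 with 1000 peaks of chromosome 19 (−0.0333) or base pairs (−0.0163). In window 1 it was smaller, with the same sign, without the 2 promoters (−0.200) or the 2 shallowest libraries (−0.178). Gained and lost regions numbered 47 and 37 with all deposited peaks, 46 and 36 at a q of at most 0.01, 7 and 22 in shortened windows, and 21 to 22 and 25 to 27 without 1 library. Kept regions reversed on the pileup scale (−0.163) and with peaks of any rank (−0.0131), and ran from 0.0441 to 0.0539 without 1 library. The same height for DHT was 0.00540 with pileup, −0.0215 with peaks of any rank and −0.0476 to −0.0295 without 1 library.

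DHT against DMSO over both sublines gave 0.532 (25000 peaks), 0.974 (all peaks), 0.964 (q of at most 0.01), −0.186 (base pairs) and 0.00255 to 0.529 without 1 library, and 0 regions in each such repeat. Within sublines the signs were not stable. With 25000 peaks, all peaks and the q limit, ENZ minus DMSO in RES-A was 0.160, 0.0581 and 0.0858. With all peaks and the q limit, DHT+ENZ minus DHT was −0.707 and −0.841 in LNCaP and 0.224 and 0.182 in RES-A. DHT+ENZ minus DHT in LNCaP was −0.433 without the shallow libraries. With 1000 peaks, DHT and ENZ minus DMSO in LNCaP were each −0.0667. As base pairs, ENZ minus DMSO in LNCaP was −0.337 and DHT minus DMSO in RES-A −0.382. Without 1 library these contrasts ran in LNCaP from −0.0835 to 0.970 (DHT), −0.201 to 0.583 (ENZ) and −0.433 to 0.444 (DHT+ENZ), and in RES-A from −0.00147 to 0.257, −0.261 to −0.0934 and −0.425 to −0.126.

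For region calls, replicate numbers did not pair the libraries. Over 12 pairs between sublines, the deviations of calls from group means correlated at −0.0243 to 0.0270. Over the 6 pairs of DHT and DMSO they correlated at 0.00803 to 0.133, with 1 pair over 0.1. With the replicate number as a block, the share difference was −2.24, lost regions numbered 22 and gained ones 18, and of the calls tested only that of DHT on height changed (−0.0393, exact p = 0.0625, sign-flip over 6 pairs). Peaks of low fold are listed less often in shallow libraries, which limits what any-rank counts can show.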
